A study of Mus musculus with 11 samples.

Results

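The respiratory chain and the ATP synthase are the protein machines of the inner mitochondrial membrane that carry out oxidative phosphorylation. Complex I (NADH dehydrogenase) and complex II (succinate dehydrogenase) pass electrons to ubiquinone, complex III passes them on to cytochrome c, and complex IV (cytochrome c oxidase) passes them to oxygen. Complexes I, III and IV pump protons as they do so, and complex V, the ATP synthase, lets the protons flow back and makes ATP. Most subunits are encoded in the nucleus and are described here. In the adult kidney the proximal tubule is known for dense mitochondria and a high need for ATP, which drives the reabsorption of sodium, glucose and other solutes.

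The genes were chosen by symbol alone. They are those of the Affymetrix Mouse Genome 430 2.0 array whose names begin with Nduf followed by a, b, c, s or v, are Sdha to Sdhd, or begin with Uqcr, Cox4 to Cox8 or Atp5. The rule found 90 genes of the 18193 with a symbol of their own on the array. By complex they are 36 genes of complex I, 4 of complex II, 8 of complex III, 17 of complex IV and 17 of complex V. The symbol pattern also takes in 8 complex I assembly factors, Ndufaf1 to Ndufaf8, which help to build complex I and are not part of the finished enzyme. Ndufa4 and Ndufa4l2 were kept with complex I by their symbols, although the Ndufa4 protein is now known as a subunit of complex IV. A further 10 probe sets shared between several symbols were not used.

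The study set 4 compartments of the developing mouse kidney and ureter side by side, to define the genes each of them uses. All 11 samples were wild-type CD-1 mice, an outbred stock, at E15.5 (Theiler stage 23), with no treatment and with sex unknown. Early proximal tubule (EPT, 3 arrays) is the segment that will do most of the reabsorption, and cortical collecting duct (CCD, 2 arrays) comes from the ureteric bud. Ureteral smooth muscle (USM, 3 arrays) is the muscle coat of the ureter, and urothelium (URO, 3 arrays) is the lining epithelium inside it. Each sample was a pool of about 50 sections from 5 kidneys, cut out by laser capture, and its RNA was amplified in 2 rounds. Nothing in the sources used here says whether the pools of a compartment came from separate litters, so the p-values measure the spread between these arrays. In dissected tissue, fewer cells of a type and less RNA per cell cannot be told apart.

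The labelled compartments were read against lists of marker genes. These lists were chosen with earlier results of these data known, so this is no independent check. All 6 markers of proximal tubule, 6 of collecting duct, 6 of smooth muscle and 6 of urothelium that could be tested were highest in the compartment they mark. Of these, 6, 5, 6 and 4 in the same order were called higher there. The median deviation of the 6 urothelium genes was 4.22, 3.36 and 1.58 log2 units in URO 1, 2 and 3. Of the collecting duct markers, Scnn1g and Gata3 were also called higher in URO, and Tfcp2l1 was also called higher in EPT. The median deviation of the 6 collecting duct genes was 0.25, -1.16 and 1.00 in URO 1, 2 and 3, below the CCD arrays. The urothelium arrays also carried muscle markers: the median deviation of the 6 muscle genes was 1.72, 0.89 and -1.14 log2 units in URO 1, 2 and 3, against 4.12, 4.36 and 4.28 in the USM arrays. Of 6 interstitium markers 4 were called higher in USM (Pdgfra, Lum, Col3a1 and Zeb2), and the same 4 were called lower in EPT. Another of the 6, Ntn1, went the other way and was called higher in EPT, and it was called lower in CCD. Over all 6 the median difference was 2.31 in USM and -1.72 in EPT. The median deviation of these 6 genes was 1.77, 1.58 and 1.84 in the USM arrays, against -0.18 or lower in each EPT and CCD array and -0.89 to 0.91 in URO. Of 6 pericyte markers Rgs5 was called higher in USM. The part of other cells in the EPT to USM differences below was not tested. The labels carry a tag that sorts the arrays into 4 batches, and its meaning is not stated. Batch 1 held USM 3, URO 2 and URO 3, batch 2 held USM 1 and URO 1, batch 3 held CCD 2, EPT 2 and EPT 3, and batch 4 held CCD 1, EPT 1 and USM 2. No URO array shared a batch with an EPT or CCD array, so batch and compartment cannot be told apart between them. USM 2 was the only USM or URO array in a batch with EPT or CCD arrays. Median signals were 247 to 401 per array. No detection calls came with these values, and precision is limited by how many arrays there are.

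Levels are given as log2(signal + 55), where the signal is the scanner software's linear intensity for the probe set with the highest mean of each gene. A difference of 1 on this scale is about 2-fold, less for dim genes. A gene was tested if its probe set passed the median signal of the array on 2 or more arrays. Of the 90 genes, 88 were tested, and 81 lay above the median in all 11 arrays. The 2 left out were Cox7b2 and Cox8b, subunit isoforms of complex IV. Cox7b2 lay above the median in 0 arrays and Cox8b in 1 array.

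The first question was whether any of these genes differed between compartments. Few of the respiratory chain and ATP synthase genes differed by the tests used. By limma's F test over the 4 compartments, with Benjamini-Hochberg adjustment over all genes tested and a range of compartment means of at least 1, 0 of 88 were called, against 20.1% of the 13614 genes. At an unadjusted p under 0.05 the test took 8 of 88, which is 9.09%, against 33.5% of all genes. The 8 were Atp5e, Atp5k, Cox7a1, Cox7a2l, Ndufaf7, Ndufs8, Ndufv1 and Uqcr11. The smallest adjusted p by the F test was 0.0631, for Cox7a1.

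The spread between compartments was narrow in size as well as in calls. The range between the highest and the lowest compartment mean had a median of 0.75 log2 units over the 88 genes and 1.14 over all genes tested. The range reached 1 unit in 26 of the 88 genes (29.5%) and in 58.0% of all genes. It reached 2 units in 0 of the 88 and in 19.5% of all genes. The widest range was that of Ndufs8, at 1.84. The narrowest was 0.20, for Ndufa5, a small subunit of complex I that was named after its value was seen. The spread between arrays of 1 compartment was also somewhat smaller, with a median residual SD of 0.45 in the 88 genes and 0.58 over all genes. The mean signal of 79 of the 88 genes lay above the median of all genes tested, and the part of this brightness in the narrow ranges was not tested.

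**Figure D1:**
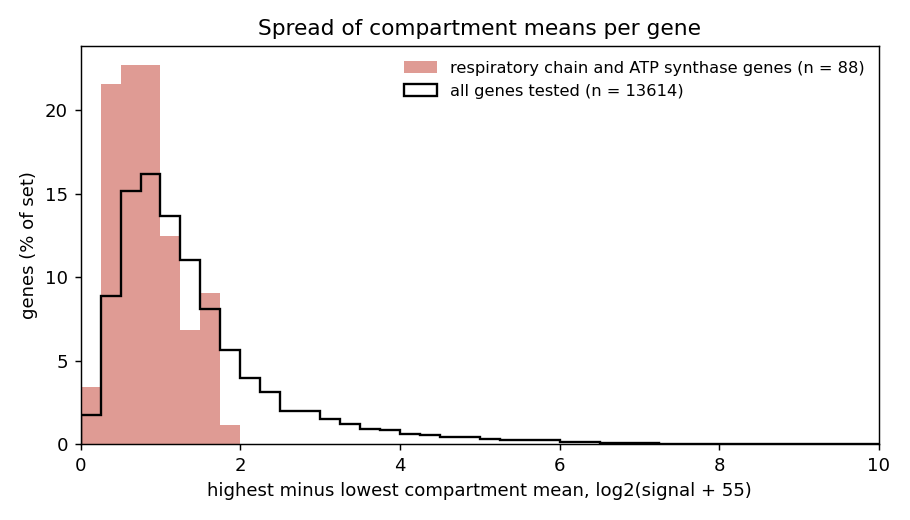
Share of genes (vertical axis, percent of each set) by the highest minus the lowest of the 4 compartment means (horizontal axis, log2 units), for the 88 respiratory chain and ATP synthase genes tested (filled) and all 13614 genes tested (line). The filled set ends at 1.84, while 19.5% of all genes lie at 2 or more.

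A missed threshold does not show that levels were equal, so the intervals of the differences were read as well. For early proximal tubule against the mean of the other 3 compartments, the 95% interval lay wholly inside 1 log2 unit in either direction for 43 of 88 genes (48.9%), against 18.1% of all genes. For cortical collecting duct the same held for 20 of 88 (22.7%, against 12.4%), for ureteral smooth muscle for 39 (44.3%, against 21.0%) and for urothelium for 37 (42.0%, against 22.9%). For these genes a 2-fold difference from the other compartments lay outside the interval. For the remaining genes the interval reached past 1 unit in at least 1 direction, and for some of them it did not include 0. The median interval reached 0.75 units to each side of the estimate for EPT, USM and URO, and 0.86 for CCD with its 2 arrays.

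**Figure D2:**
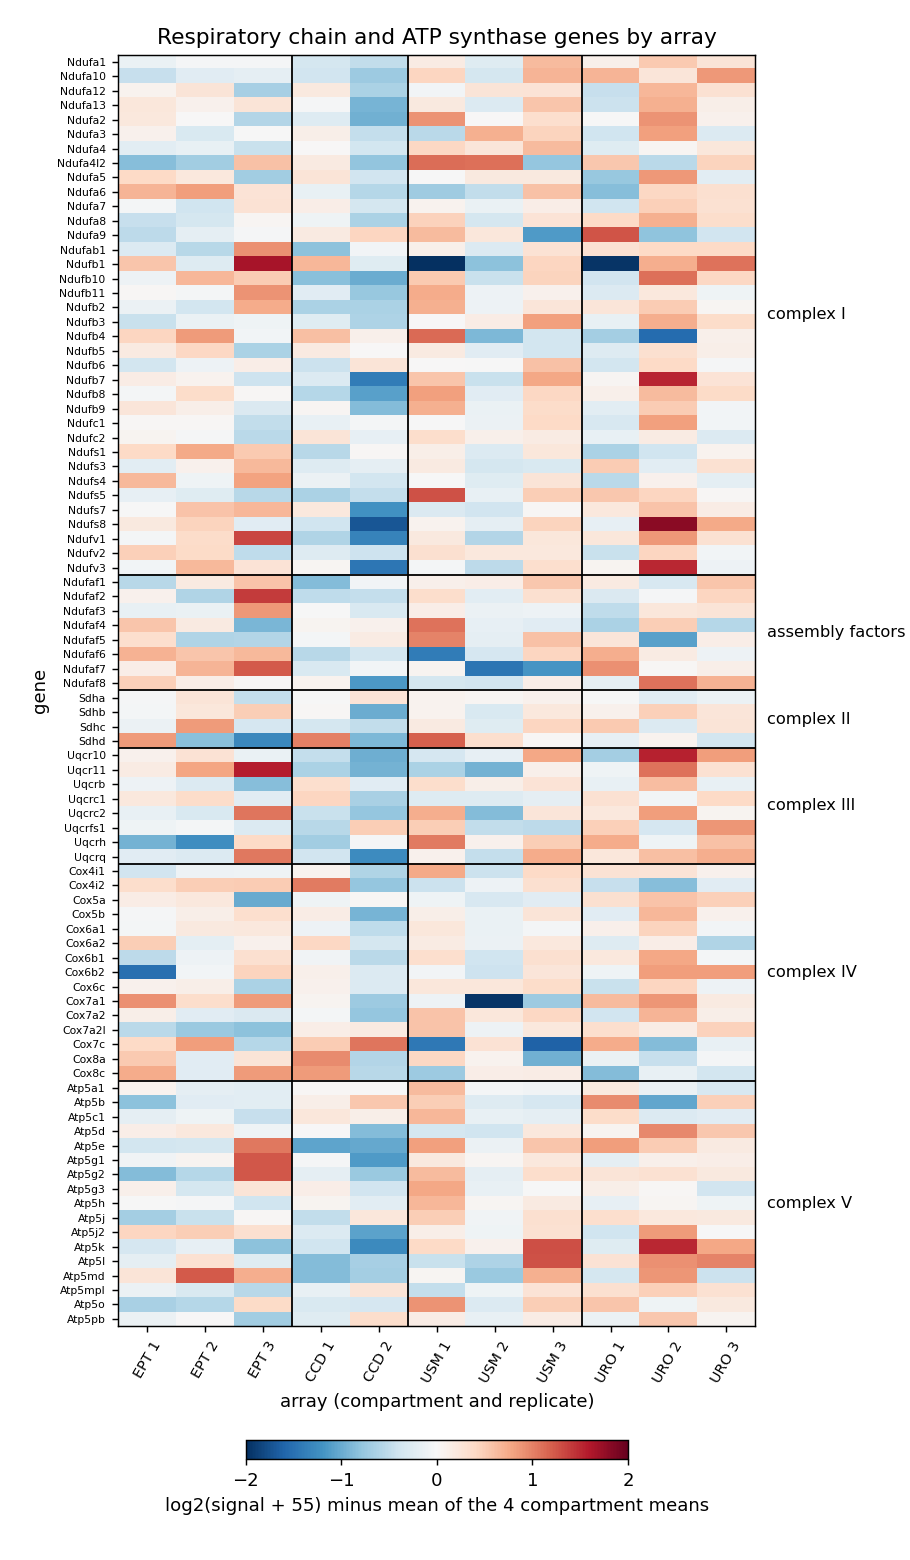
Deviation of each of the 88 genes tested (rows, by complex) in each of the 11 arrays (columns) from the mean of its 4 compartment means, in log2 units, with colours that stop at 2 units in either direction. Blue is lower and red is higher, and the column of CCD 2 is mostly blue, with 70 of 88 genes below their own mean.

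Complex I, which takes electrons from NADH, was tested with 36 genes. Its flavin and iron-sulfur subunits form the arm that carries electrons to ubiquinone. Ndufv1, which holds the site that oxidises NADH, had levels of 12.90 and 12.17 in CCD, against 13.46, 13.87 and 14.84 in EPT, 13.70, 12.92 and 13.73 in USM, and 13.73, 14.36 and 13.81 in URO. Both CCD arrays lay below all 9 others. The difference of CCD from the other compartments was -1.29 ± 0.43 (SE), with an adjusted p of 0.172 in limma, so it did not pass the test. A second Ndufv1 probe set followed the chosen one (correlation over the 11 arrays 0.99). The remaining one did not (0.14). It had 11.52 and 10.96 in CCD, against 12.54, 10.93 and 12.08 in URO, so that URO 2 was its lowest array. The complex I gene Ndufs8, an iron-sulfur subunit close to the ubiquinone site, had the widest range. Its levels were 12.97 and 11.65 in CCD, against 13.19, 15.16 and 14.11 in URO. EPT arrays gave 13.55, 13.81 and 13.14, and USM arrays gave 13.42, 13.19 and 13.81. CCD was again below all other arrays, with a difference of -1.40 ± 0.49 (SE) and an adjusted p of 0.201 in limma.

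Ndufs8 was measured by 6 probe sets, and they did not all move together. The chosen one and a close twin, both of the x type that can bind related transcripts, gave URO 2 as the highest array and CCD 2 as the lowest. A further probe set gave 9.88 to 10.68 in URO, against 10.71 and 10.70 in CCD. Its URO arrays all lay below its CCD arrays, the reverse of the chosen probe set, and its correlation with the chosen one over the 11 arrays was -0.08. The other 3 correlated with the chosen one at 0.86, 0.80 and 0.62. On 2 of these both CCD arrays were again below the 9 others, at 11.01 and 10.55 on one and at 10.53 and 10.25 on the other.

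The other electron-carrying subunits of complex I had narrower ranges. Ndufs1, the largest subunit and the holder of several iron-sulfur clusters, had 13.20, 13.55 and 13.31 in EPT. The other arrays lay lower, at 12.24 and 12.81 in CCD, 12.92, 12.52 and 13.02 in USM, and 12.17, 12.39 and 12.86 in URO. Ndufs1 and Cox7a2l, a complex IV gene, were the only 2 of the 88 (2.27%) whose EPT arrays did not overlap with the 8 others, against 12.5% of all genes. The difference of Ndufs1 was 0.75 ± 0.31 (SE), with an adjusted p of 0.118 in limma. Ndufs7, which carries the last iron-sulfur cluster before ubiquinone, ranged over 0.91 between compartment means. Ndufv2, an iron-sulfur partner of Ndufv1, ranged over 0.59. Ndufc2, a membrane-arm subunit, was close to level, with a range of 0.37. None of these 3 had an unadjusted F test p under 0.05.

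Ndufa4 and Ndufa4l2 both had their highest compartment mean in USM and their lowest in EPT, but differed in level and in spread between arrays. Ndufa4l2 is known as a target of hypoxia signalling. Ndufa4 had 14.44, 14.27 and 14.65 in USM, against 13.80, 13.87 and 13.57 in EPT, 14.03 and 13.66 in CCD, and 13.78, 14.05 and 14.25 in URO. It was the only one of the 88 with all USM arrays above the others, while 5.21% of all genes were so placed. The difference was 0.58, with an adjusted p of 0.215 in limma. Ndufa4l2 lay above the array median in 3 arrays only, with 8.87, 8.84 and 6.98 in USM. Its 3 USM arrays were split, and its compartments overlapped. USM differed from the other compartments by 0.64, with an adjusted p of 0.451 in limma.

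The complex I assembly factors gave 1 of the 2 calls between single compartments. Ndufaf7 is an arginine methyltransferase of the mitochondrial matrix that modifies a core subunit of complex I during assembly. Its levels were 10.88, 11.42 and 11.97 in EPT, against 10.80, 9.27 and 9.56 in USM. CCD arrays had 10.44 and 10.68, and URO arrays had 11.65, 10.77 and 10.86. All 3 EPT arrays lay above all 3 USM arrays, although EPT 1 and USM 1 were close. EPT exceeded USM by 1.55 ± 0.47 (SE, 95% interval 0.53 to 2.56), with an adjusted p of 0.0335 in limma. Against the mean of the other 3 compartments, EPT differed by 0.91, with an adjusted p of 0.138. Within batch 4, the single EPT array exceeded the single USM array by 1.61. That array was USM 2, the lowest of all arrays for this gene. The adjusted p of the EPT to USM difference in limma was 0.0107 to 0.142 over the 20 settings tried. The call was lost without EPT 2, EPT 3, USM 2 or USM 3, or with batch as a fixed block. Over the same settings the difference lay between 1.24 and 2.01.

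Ndufaf6, needed for the stability of an early complex I intermediate, showed a similar order without passing the test. It had 11.43, 11.28 and 11.38 in EPT, against 10.17 and 10.37 in CCD and 9.33, 10.40 and 11.16 in USM. URO arrays reached 11.46, so EPT was not apart from them. Ndufaf4, another assembly factor, ranged over 0.47, with its highest and lowest arrays in USM and EPT. Over the 8 assembly factors the median difference of EPT from the other compartments was 0.27, against 0.05 over all genes tested.

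Of the 4 genes of complex II, the enzyme shared with the citrate cycle, 0 had an unadjusted F test p under 0.05. Sdha, the flavoprotein that oxidises succinate, had 14.85, 15.12 and 14.40 in EPT, 14.86 and 15.15 in CCD, 14.94, 14.91 and 14.96 in USM, and 14.86, 14.64 and 14.75 in URO. Its compartment means spanned 0.25 units, and its arrays overlapped throughout. Sdhb, the iron-sulfur subunit, spanned 0.75, with CCD 2 as its lowest array at 12.82. Sdhd, a membrane anchor, spread widely within compartments. Its levels were 15.33, 13.64 and 13.18 in EPT and 15.48 and 13.57 in CCD. In both compartments the batch 4 array was the high one and the batch 3 arrays were the low ones. In USM the batch 4 array, at 14.80, lay below the batch 2 array, at 15.67. A second, dimmer probe set of Sdhd did not follow the chosen one, with a correlation of -0.24 over the 11 arrays and 9.66, 10.06 and 10.67 in EPT, and the part of the batch in this gene's spread was not tested.

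Complex III, which hands electrons to cytochrome c, was tested with 8 genes. Uqcr11, its smallest subunit, had 12.63, 13.25 and 14.04 in EPT, against 11.83 and 11.52 in CCD, 11.84, 11.53 and 12.57 in USM, and 12.39, 13.56 and 12.77 in URO. EPT arrays lay above all CCD and USM arrays and overlapped with URO. The difference of EPT from the other compartments was 1.12 ± 0.39 (SE, 95% interval 0.28 to 1.96), with an adjusted p of 0.0696 in limma. EPT exceeded CCD by 1.63 (adjusted p = 0.0976 in limma) and USM by 1.33 (adjusted p = 0.0628 in limma). Within batches EPT exceeded CCD by 2.13 in batch 3 and by 0.80 in batch 4. The gene passed both thresholds against the other compartments under some other settings, which the closing section gives.

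The other complex III genes did not share this order. Uqcrh, the hinge protein that helps to dock cytochrome c, had 10.88, 10.59 and 12.22 in EPT, against 12.87, 11.91 and 12.31 in USM. Its EPT arrays were split, and its F test p was 0.0985 before adjustment. Uqcrb, a subunit near the ubiquinone site, had its lowest array in EPT, at 16.08, and its highest in URO, at 17.55. The catalytic Rieske iron-sulfur protein Uqcrfs1 and the core protein Uqcrc1 ranged over 0.52 and 0.45 between compartment means.

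Complex IV, the oxidase that reduces oxygen to water, is known for isoforms that differ between tissues, and its isoform sets were read one by one. Cox7a1, the isoform known from heart and skeletal muscle, gave the other call between single compartments, and it was low in the ureteral muscle. Its levels were 9.19, 8.62 and 9.13 in EPT, against 8.17, 6.31 and 7.54 in USM. CCD arrays had 8.32 and 7.54, and URO arrays had 8.90, 9.16 and 8.45. Both EPT and URO lay above all USM and CCD arrays. EPT exceeded USM by 1.64 ± 0.48 (SE, 95% interval 0.61 to 2.68), with an adjusted p of 0.0269 in limma. URO exceeded USM by 1.50, with an adjusted p of 0.0778. USM differed from the mean of the other 3 compartments by -1.25, with an adjusted p of 0.0514.

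The Cox7a1 difference rests on dim values and on few arrays. The gene lay above the array median in 6 arrays, in 2 of the 4 compartments, and so passed the filter only through the compartments where it was high. Without USM 2, its dimmest array, EPT exceeded USM by 1.13, with an adjusted p of 0.114 in limma. The call was also lost without EPT 1, EPT 3 or USM 3. The difference kept its sign, at 1.06 to 3.02 over the 20 settings tried, with adjusted p in limma between 0.0128 and 0.114. Within batch 4, which holds 1 array of each, EPT exceeded USM by 2.88. The USM array there is USM 2, so this value rests on the same dimmest array.

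Cox7a2 and Cox7a2l, relatives of Cox7a1, had other orders. Cox7a2, the widely used isoform, had 16.62, 16.27 and 16.46 in USM, and its compartments overlapped. Cox7a2l is known to join complexes III and IV into a supercomplex. It had 14.77, 14.57 and 14.50 in EPT, against 15.45 and 15.49 in CCD, 15.89, 15.22 and 15.52 in USM, and 15.66, 15.47 and 15.78 in URO. The 3 EPT arrays lay below all 8 others, with a gap wider than the spread within EPT. EPT differed from the mean of the others by -0.94 ± 0.29 (SE, 95% interval -1.56 to -0.32), with an adjusted p of 0.0414 in limma. This passed the p threshold and not the minimum of 1 log2 unit, so it was no call under the rule used. With no minimum fold, 1 of 88 genes was lower in EPT, against 6.50% of all genes.

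The p of Cox7a2l depended on the setting. Over 20 settings the difference kept its sign, at -1.02 to -0.62, and the adjusted p in limma was 0.00717 to 0.585, under 0.05 in 8 of them. With label batch as a fixed block the difference was -0.62 and the adjusted p 0.585 in limma. In that fit only USM 2 joined the batches of EPT and CCD to those of URO. The adjusted p in limma was also over 0.05 without any 1 of the EPT arrays, at 0.0826, 0.138 and 0.119, and without CCD 1, CCD 2, USM 1, USM 3, URO 1 or URO 3. It was 0.0661 with quantile normalization and 0.0524 with no filter.

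The other 2 probe sets of Cox7a2l gave the same placing. The second probe set had 14.23, 13.87 and 14.00 in EPT, against 14.62 to 15.33 in the other compartments. The third had 13.30, 12.70 and 12.82 in EPT, against 13.48 to 14.80. On all 3 probe sets the EPT arrays lay below the 8 others. These probe sets were read from the same 11 samples, so they are no further replicates. Within batches the difference of EPT from CCD was -0.95 in batch 3 and -0.68 in batch 4, and that of EPT from USM was -0.45 in batch 4.

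**Figure D3:**
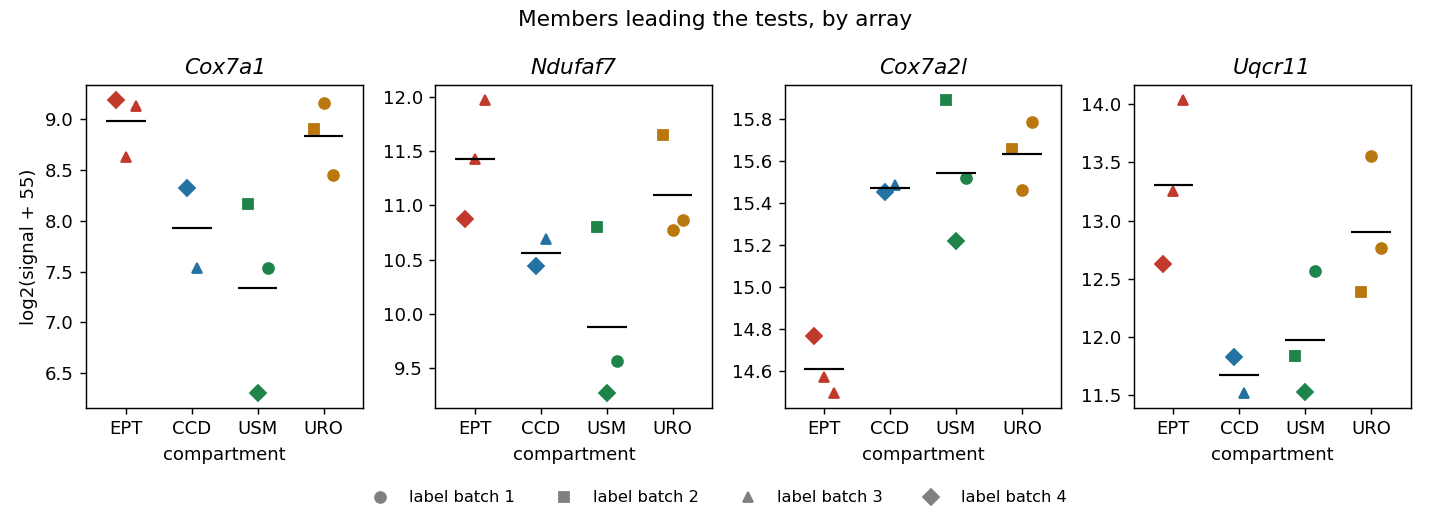
Level of Cox7a1, Ndufaf7, Cox7a2l and Uqcr11 (vertical axis, log2(signal + 55), with its own scale in each panel) in each array by compartment (horizontal axis), with marker shape for the label batch and a bar for the compartment mean. EPT arrays lie above USM arrays for Cox7a1, Ndufaf7 and Uqcr11, and below all other arrays for Cox7a2l.

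The remaining isoform sets of complex IV gave no call. Cox4i1, the common form of a subunit that regulates the oxidase, ranged over 0.52, and Cox4i2, its lung and hypoxia-linked form, over 0.96. Cox4i2 lay above the array median in 2 arrays only, with 9.17 in CCD 1 and 7.35 in CCD 2. Cox6a1 ranged over 0.47 and its striated muscle form Cox6a2 over 0.37. Cox6b1 ranged over 0.62 and its testis form Cox6b2 over 0.90. Cox8a ranged over 0.39 and Cox8c, known as a testis form, over 0.92. Cox6a2 had 8.97, 8.69 and 9.02 in USM, inside the range of the other arrays. Cox8b, a striated muscle form that was not tested, had 8.98, 6.46 and 7.50 in USM, against 6.10 to 6.99 in the 8 other arrays. Its USM 1 array alone lay above that array's median. Cox7b2 lay at 7.80 or lower in all 11 arrays.

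Complex V was tested with 17 genes of the catalytic head, the stalks and the membrane rotor. For the main subunits of the catalytic head no difference passed the test on the chosen probe sets. Atp5a1, the alpha subunit, ranged over 0.28 between compartment means, and Atp5b, the beta subunit that forms ATP, over 0.74. Atp5b spread most within urothelium, with 14.64, 12.66 and 14.18. Atp5c1, the gamma subunit that turns inside the head, ranged over 0.41 on its chosen probe set, with arrays between 15.79 and 16.90.

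A second Atp5c1 probe set had a pattern that the chosen one lacked. It gave 12.25, 12.74 and 13.30 in EPT and 11.33 and 12.94 in CCD. USM arrays gave 7.77, 10.66 and 10.37, and URO arrays gave 11.67, 9.77 and 9.60. EPT arrays lay above all USM and URO arrays on it. With only plain probe sets kept (those not marked x, s or a in their names), this one stood for the gene, and Atp5c1 was then called by the F test. Both probe sets carry the same gene symbol in the annotation, and what sets them apart was not tested.

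The central stalk and membrane subunits gave the widest ranges of complex V. Atp5e, the epsilon subunit of the central stalk, had 12.87 and 12.90 in CCD. It had 13.55, 13.57 and 14.98 in EPT, 14.73, 13.79 and 14.47 in USM, and 14.75, 14.42 and 14.09 in URO. Both CCD arrays lay below all others, by a difference of -1.38 ± 0.43 (SE), with an adjusted p of 0.139 in limma. Atp5k, the e subunit that helps to pair ATP synthases, had 13.42, 15.16 and 14.43 in URO and 14.07, 13.75 and 14.95 in USM. EPT arrays gave 13.33, 13.49 and 12.84, and CCD arrays gave 13.26 and 12.39. USM arrays lay above all EPT and CCD arrays, and URO 1 overlapped with EPT. Its F test adjusted p was 0.116. A second Atp5k probe set followed this one, with a correlation of 0.97 over the 11 arrays. The remaining one, at 0.71, gave 13.85, 13.23 and 14.06 in USM, against 13.24, 13.40 and 14.29 in EPT, and there USM and EPT overlapped.

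Atp5g1, Atp5g2 and Atp5g3 encode the same mature c subunit of the rotor ring with different import signals. Their compartment means ranged over 0.99, 0.73 and 0.33. For Atp5g1 the highest array was EPT 3, at 12.35, and the lowest was CCD 2, at 9.97. For Atp5g2 the highest was again EPT 3, at 13.01. None of the 3 had a difference past the test in any comparison.

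The collecting duct was the lowest compartment for 52 of the 88 genes, EPT for 21, URO for 8 and USM for 7. As shares these were 59.1% for CCD, 23.9% for EPT, 9.09% for URO and 7.95% for USM, against 23.3%, 26.1%, 20.5% and 30.1% of all genes tested in the same order. The median difference of CCD from the other compartments over the 88 genes was -0.41, against -0.03 over all genes tested. The same median was -0.43 for 76 genes of the mitochondrial ribosome and -0.43 for 29 of the cytosolic ribosome. The low level of CCD was thus shared with genes outside the respiratory chain. By complex the median was -0.48 for complex I, -0.25 for complex II, -0.64 for complex III, -0.11 for complex IV and -0.43 for complex V. URO was the highest compartment for 34 genes (38.6%, against 22% of all genes), with a median difference of 0.22 against 0.01 over all genes. In URO the mitochondrial ribosome had 0.49 and the cytosolic ribosome 0.31. For the 88 genes the medians were 0.02 for EPT, against 0.05 over all genes, and 0.15 for USM, against -0.07. With label batch as a fixed block the medians became 0.35 for EPT, -0.12 for CCD, -0.02 for USM and -0.14 for URO, so the direction of URO and USM turned. That fit sets EPT and CCD against USM and URO through USM 2 alone, the only array joining their batches. These medians are descriptions, since the genes were read from the same arrays.

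Single genes did not carry the low level of CCD past the test. In limma, 0 of 88 were called in CCD against the other compartments, with 2.04% of all genes called. At an unadjusted p under 0.05 there were 13 of 88 (14.8%), all lower in CCD, while 13.4% of all genes passed in either direction and 7.18% passed as lower. Both CCD arrays lay below all 9 others for 9 of the 88 genes (10.2%), against 2.72% of all genes, and above all others for 0, against 2.73%. The 9 included Atp5e, Ndufs8 and Ndufv1.

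The 2 CCD arrays did not share the low level equally. The median deviation of the 88 genes from their own means was -0.08 in CCD 1 and -0.50 in CCD 2. It was -0.02, -0.02 and 0.03 in EPT, 0.19, -0.15 and 0.26 in USM, and -0.01, 0.43 and 0.13 in URO. Over all genes tested the array medians lay between -0.11 and 0.17. Without CCD 2 the median difference of CCD was -0.18, and without CCD 1 it was -0.62. Within batch 3, the EPT arrays exceeded CCD 2 by a median of 0.57, with 67 of the 88 genes higher, against a median of 0.16 over all genes tested. Within batch 4, EPT 1 exceeded CCD 1 by a median of 0.06, with 50 higher, against -0.02 over all genes.

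Other measures were read beside the array medians. The cytosolic ribosome, a list of 29 genes with no part in respiration, had median deviations of 0.06 and -0.64 in CCD 1 and 2. In EPT it had -0.21, -0.64 and 0.25, in USM 0.77, -0.19 and 0.47, and in URO 0.06, 0.63 and 0.19. Both the cytosolic ribosome and the respiratory genes were low in CCD 2 and USM 2 and high in USM 1, USM 3 and URO 2. They parted in EPT 2, where the ribosome had -0.64 and the respiratory genes -0.02. The ribosome was highest in USM 1, and the respiratory genes were highest in URO 2. The mitochondrial ribosome, with 76 genes, had -0.18 and -0.46 in CCD, and 0.25, 0.42 and 0.43 in URO. The ratio of 3' to 5' signal of beta-actin, a sign of RNA quality, was 13.4 in CCD 2 and 6.19 in CCD 1, and its highest value was 13.5, in EPT 2, where the respiratory median was -0.02. The same ratio for Gapdh was 25.9 in CCD 2, and its highest value was 55.3, in URO 2, where the respiratory median was 0.43. The lowest beta-actin ratios were 5.07 in USM 3, 5.15 in URO 3 and 5.43 in URO 2. The respiratory medians there were 0.26, 0.13 and 0.43. The beta-actin ratio tended to be low where the respiratory median was high, though EPT 2 and CCD 1 departed from this. The Gapdh ratio did not follow the order of the array medians. The part of either ratio in the level of the respiratory genes was not tested.

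**Figure D4:**
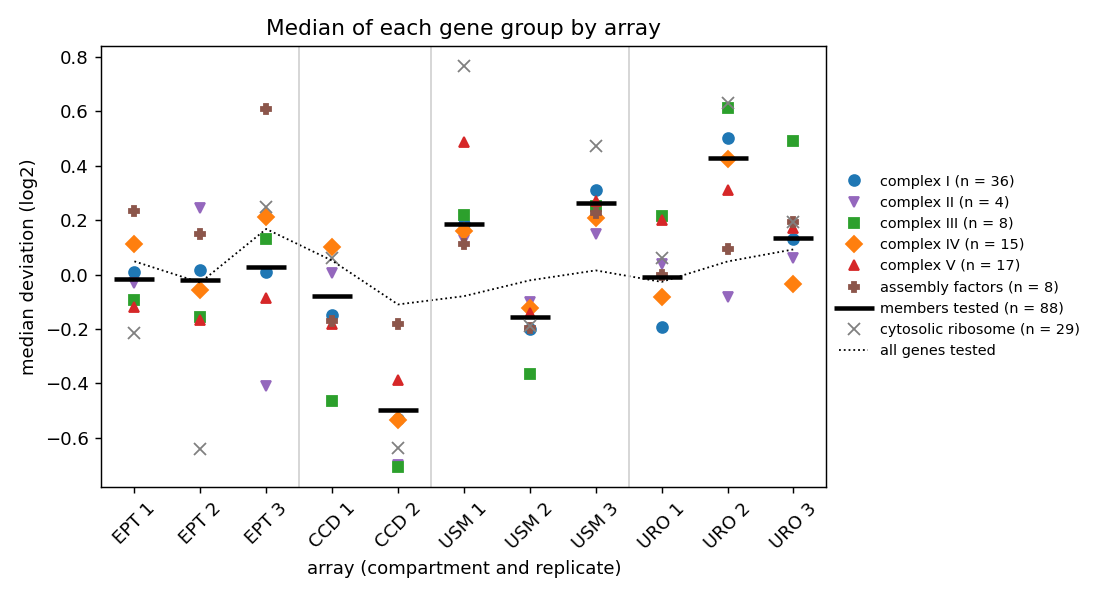
Median deviation in log2 units (vertical axis) of each complex, the assembly factors, the 88 genes tested and the cytosolic ribosome in each array (horizontal axis), with all genes tested as a dotted line. CCD 2 lies lowest for the 88 genes, at -0.50, and URO 2 highest, at 0.43. The cytosolic ribosome is also low in CCD 2, at -0.64, and high in URO 2, at 0.63. It is equally low in EPT 2, at -0.64, and highest in USM 1, at 0.77.

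No gene of the set passed both thresholds in early proximal tubule, smooth muscle or urothelium against the other compartments. For EPT in limma, 0 of 88 were called against the other compartments, with 15.9% of all genes called, and 7 of 88 passed an unadjusted p of 0.05, against 29.7%. Differences were above 0 for 45 genes and below 0 for 43. In ureteral smooth muscle 0 of 88 were called, against 15.2%, with 3 at an unadjusted p under 0.05, against 27.0%. Those 3 were all lower in USM, and Cox7a1 and Ndufaf7 were among them. In urothelium 0 of 88 were called, against 2.37%, with 4 at an unadjusted p under 0.05, against 16.0%. URO arrays all lay above the others for Atp5mpl, a small membrane subunit of the ATP synthase, and Cox5a, a matrix-side subunit of the oxidase, which is 2 of 88 against 2.17% of all genes. These 2 genes were named after their values were seen. USM arrays all lay below the others for 0 of 88, against 5.13% of all genes, and URO arrays for 0, against 0.757%.

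Pairs of compartments gave 2 calls in 6 comparisons. Between EPT and USM, 2 of 88 genes were higher in EPT, Cox7a1 and Ndufaf7, against 12.3% of all genes, and 0 were lower, against 8.06%. Between EPT and CCD 0 were called, against 5.84%, with 8 at an unadjusted p under 0.05, against 18.0%. Between EPT and URO 0 were called, against 11.5%, with 4 at an unadjusted p under 0.05, against 26.0%. Between URO and CCD 0 were called, against 0.257%, with 13 at an unadjusted p under 0.05, against 12.0%. Between URO and USM 0 were called, against 7.96%, with 2 at an unadjusted p under 0.05, against 19.2%. Between CCD and USM 0 were called, against 8.27%, with 7 at an unadjusted p under 0.05, against 20.3%.

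Subunits of the same complex did not follow each other closely across the arrays. The correlation of 2 genes over the 11 arrays had a median of 0.25 for the 933 pairs within a group and 0.18 for the 2895 pairs across groups, where the arrays are shared by all pairs. Different probe sets of the same gene agreed better. Over all 89 pairs of a chosen probe set with another of its gene, the median correlation was 0.54. Over 61 pairs in which the second probe set was above the median in all arrays, the median correlation was 0.70, with 43 pairs over 0.5 and 5 below 0.

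The promoters of these genes were read for the motifs of factors known to drive nuclear genes of respiration. The windows were 250 bases before to 50 bases after each gene's start, from RefSeq on the GRCm38.p6 build, and 74 of the 90 genes had one, with 79 windows in all. The motifs were that of NRF1, CCGGAAG for the ETS family that includes GABP, AAGATGGC for YY1 and TCAAGGTCA for the estrogen-related receptors (ERR), each searched on both strands, and matches of different motifs did not overlap. The NRF1 motif is a palindrome of 10 bases and stands in capitals in the Atp5k promoter. NRF1 was in 7.59% of the windows of these genes, against 1.85% of the windows of all genes tested and 0.971% of all 32851 windows. ETS was in 24.1%, against 8.86% of all windows and 2170 of the 13999 windows of tested genes. YY1 was in 12.7%, against 546 of those 13999 windows and 2.75% of all windows, and ERR in 2.53%, against 0.279% of tested genes and 0.423% of all windows. At least 1 of the motifs was in 40.5% of the windows, against 20.2% of tested genes and 12.3% of all windows. Each motif was more frequent in these genes than in both backgrounds, though NRF1 rests on 6 of the 79 windows and ERR on 2. A match describes the letters and does not show a site in use.

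The promoters of 4 genes are printed to set a gene with a difference between compartments beside others with the known motifs. Cox7a1 had a call between EPT and USM and none of the 4 motifs. Uqcr11 was high in EPT without passing the test. Atp5k had the NRF1 motif, and Sdhd was 1 of the 2 genes with the ERR motif, the other being Atp5g3. Letters in capitals mark the motif matches, and each sequence runs 5′ to 3′ on the strand of its gene. The start site is base 1, and the base before it is base -1.
Cox7a1, chr7:30183921-30184220, plus strand, GRCm38.p6: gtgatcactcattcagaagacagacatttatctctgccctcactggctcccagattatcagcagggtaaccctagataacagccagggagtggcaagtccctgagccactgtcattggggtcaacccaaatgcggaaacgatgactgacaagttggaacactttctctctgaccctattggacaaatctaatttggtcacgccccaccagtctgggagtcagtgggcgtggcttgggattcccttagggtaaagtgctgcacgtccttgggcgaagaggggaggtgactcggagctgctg
Uqcr11, chr10:80406772-80407071, minus strand, GRCm38.p6: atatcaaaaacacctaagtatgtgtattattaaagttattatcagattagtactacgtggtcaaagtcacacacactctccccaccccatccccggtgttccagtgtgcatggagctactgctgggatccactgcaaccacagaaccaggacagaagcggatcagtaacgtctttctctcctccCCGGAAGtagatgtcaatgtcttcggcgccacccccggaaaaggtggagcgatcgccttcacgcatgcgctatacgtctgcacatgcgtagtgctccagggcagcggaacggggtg
Atp5k, chr5:108434350-108434649, minus strand, GRCm38.p6: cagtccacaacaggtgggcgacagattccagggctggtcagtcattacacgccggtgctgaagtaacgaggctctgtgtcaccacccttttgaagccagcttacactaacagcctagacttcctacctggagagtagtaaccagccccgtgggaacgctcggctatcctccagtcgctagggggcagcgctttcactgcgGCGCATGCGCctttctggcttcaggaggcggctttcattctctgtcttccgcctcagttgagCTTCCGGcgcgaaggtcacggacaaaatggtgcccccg
Sdhd, chr9:50603800-50604099, minus strand, GRCm38.p6: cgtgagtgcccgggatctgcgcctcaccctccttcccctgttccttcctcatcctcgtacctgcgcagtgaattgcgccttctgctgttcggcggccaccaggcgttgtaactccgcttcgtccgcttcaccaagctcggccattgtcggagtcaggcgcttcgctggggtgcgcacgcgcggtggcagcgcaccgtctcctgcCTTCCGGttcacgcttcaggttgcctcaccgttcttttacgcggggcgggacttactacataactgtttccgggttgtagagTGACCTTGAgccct

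In Uqcr11 the ETS match begins at base -66. In Atp5k the NRF1 match begins at base -50 and an ETS match on the other strand at base 13 after the start. In Sdhd an ETS match on the other strand begins at base -46, and the ERR match, read as TGACCTTGA on this strand, at base 37 after the start. Sdhd and Atp5g3, the 2 genes with the ERR motif, had F test adjusted p of 0.634 and 0.904.

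Some known regulators of these genes differed between compartments. Esrrg, an estrogen-related receptor known to drive genes of oxidative metabolism, had 14.84, 15.06 and 15.02 in EPT, against 12.85 and 13.61 in CCD, 8.33, 9.68 and 6.09 in USM, and 9.83, 10.60 and 10.89 in URO. EPT exceeded the mean of the other compartments by 4.41 ± 0.58 (SE), with an adjusted p of 0.000193 in limma, and USM differed from its others by -4.85. Esrra, its relative, was higher in EPT by 1.71. Polrmt, the RNA polymerase of mitochondrial DNA, was higher in EPT by 2.18, with 11.72, 11.83 and 12.89 in EPT, against 9.48 to 10.60 in the 8 other arrays. Ppargc1a, the coactivator of mitochondrial biogenesis, fell by 2.31 in USM. It had 13.52 and 14.00 in CCD, within the range of EPT, at 14.11, 13.50 and 12.30, against at most 11.11 in USM. Its difference from the other compartments was 1.70 in EPT and 2.31 in CCD, with adjusted p of 0.0735 and 0.121 in limma. Yy1, a factor with a role in many tissues, fell by 1.17 in EPT. Of the 16 regulators tested, 3 were called higher and 1 lower in EPT, against 15.9% of all genes, and 0 higher and 2 lower in USM, against 15.2%.

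Genes that work beside the complexes moved in small numbers. Of 42 electron carriers, other subunits and assembly factors tested, 3 rose and 1 fell in EPT against the other compartments (9.52%, against 15.9% of all genes). Those that rose were Coq2 and Coq9, which act in the synthesis of ubiquinone, by 1.39 and 1.12, and Ttc19, which maintains complex III, by 1.65. Higd1a, a hypoxia-induced protein of the respiratory chain, fell by 1.26. In USM 0 rose and 1 fell, against 15.2% of all genes called, and the one that fell was Coq2, by 1.12. Coq2 had 13.32, 13.98 and 14.63 in EPT, against 12.04, 11.97 and 12.27 in USM. Of 17 genes of the citrate cycle and pyruvate dehydrogenase, 0 were called in any compartment against the others.

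Glycolysis was read as the other route to ATP. Of 16 genes tested, 1 rose and 2 fell in EPT, and 1 rose and 2 fell in USM. That is 18.8% in each, near the 15.9% and 15.2% of all genes called in these comparisons. Ldhb, the lactate dehydrogenase subunit of oxidative tissues, was higher in EPT by 1.40 and fell by 1.78 in USM. Hk1, the common hexokinase, fell by 1.93 in EPT, with 9.51, 10.05 and 9.30 in EPT, against 11.13 to 12.39 in the 8 other arrays. Slc16a1, a lactate carrier, fell by 1.11 in EPT. Pfkp, a phosphofructokinase, was higher in USM by 1.00. Its difference in EPT was 0.99 (adjusted p = 0.0467 in limma), just under the minimum of 1, and EPT and USM differed by -0.01. Aldoc, an aldolase, fell by 1.70 in USM. In EPT the median difference was 0.56 for the regulators, 0.11 for the carriers and assembly factors, 0.14 for the citrate cycle and -0.22 for glycolysis, against 0.05 over all genes tested. In USM it was -0.24, -0.23, -0.15 and 0.20 in the same order, against -0.07. For the mitochondrial ribosome 1 of 76 genes was called by the F test, and for the cytosolic ribosome 2 of 29, against 20.1% of all genes.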

How the data were processed

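Levels were measured on 11 Affymetrix arrays of laser-captured tissue. The authors deposited 1 linear intensity per probe set, 45101 in all, and GCOS, the Affymetrix scanner software, is named in the submitters' processing notes. All arrays share 1 trimmed mean, leaving out 2% of probe sets at either end, and that scaling was kept. Compartments were read from the labels.

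A pseudocount of 55, near the 20th percentile of all values, was added before log2. Control probe sets and those with 0 or several gene symbols were left out, and 29565 probe sets passed the filter. In limma 3.58.1 under R 4.3.3, a mean was fitted for every compartment with a common spread, on 7 residual and 6.38 prior degrees of freedom. Calls needed an adjusted p under 0.05 over 13614 genes and an absolute difference of at least 1. The code was checked on simulated data. Single genes were named if called against the other compartments, if first by mean level or among the 2 smallest F test p-values of their complex, or if a tissue isoform or catalytic subunit. Of each pathway list up to 4 genes per comparison were named, by moderated t. The genes and lists were chosen with earlier results of these data known. Other scalings, pseudocounts, filters, probe set choices, blocks and fits without 1 array were tried.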

Additional observations from a re-analysis of the deposited data

How the results depend on the processing

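Counts of respiratory chain and ATP synthase genes called moved by at most 2 under the alternatives. The genes tested were 80 with the 75th percentile filter, 67 with plain probe sets only, 90 with no filter and 88 otherwise. The F test count of 0 became 1 with a pseudocount of 190 (Uqcr11), 1 with plain probe sets only (Atp5c1), 2 with trend and robust eBayes (Cox7a2l and Uqcr11) and 1 with label batch as a fixed block (Cox7a1). The share of all genes called by the F test lay between 9.71% and 28.8%. For EPT against the other compartments the count of 0 became 1 with no minimum fold (Cox7a2l), with a pseudocount of 190, with a filter at the 75th percentile or with trend and robust eBayes (Uqcr11 in each), and with plain probe sets only (Atp5c1). For USM it became 1 with the 75th percentile filter (Ndufaf7), probe sets averaged per gene (Cox7a1), plain probe sets only (Atp5c1), and batch as a block, either fixed or random (Cox7a1). EPT against URO gave 1 with a pseudocount of 190, the 75th percentile filter or trend and robust eBayes (Cox7a2l), and CCD against USM gave 1 with trend and robust eBayes (Atp5e). EPT against USM gave 1 in place of 2 with the fixed block. The fixed block also moved the median difference to 0.35 for EPT, -0.12 for CCD and -0.14 for URO. The cause of these moves was not tested. With the fixed block, EPT and CCD are set against USM and URO through USM 2 alone.

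Leaving out each array in turn gave 0 to 1 calls for EPT against the others (1, Uqcr11, without EPT 1 or URO 2) and 0 to 0 for CCD and URO. It gave 0 to 2 for USM, with 2 (Cox7a1 and Ndufaf7) without USM 1 and 1 (Cox7c, named after its value was seen) without USM 2. The F test gave 0 to 2, with 2 (Cox7a1 and Ndufaf7) without USM 1 and 1 (Atp5k) without URO 1. EPT against USM gave 1 to 2, with 1 without EPT 2 (Cox7a1), EPT 3 (Uqcrh) or USM 2 (Cox7c). The 2 genes were others without EPT 1 (Ndufaf7 and Uqcr11) and without USM 3 (Ndufaf6 and Uqcr11). URO against USM gave 0 to 1 (Cox7a1, without USM 1), CCD against USM 0 to 1 (Cox7c, without USM 2), and the other 3 pairs 0 to 0. The medians lay between -0.04 and 0.08 for EPT, -0.62 and -0.18 for CCD, 0.07 and 0.31 for USM, and 0.17 and 0.32 for URO. No paired analysis was possible because the replicate numbers used follow accession order, and no label says that numbers in the titles mark a shared animal, so label batch was fitted as the block. With 2 arrays of CCD and 3 of each other compartment, intervals are wide, and a fit without 1 CCD array assumes that the lone array varies like the others.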
